A study of Mus musculus with 14 samples.

Results

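The brains of C57BL/6JOlaHsd wild-type (WT) mice injected with conduritol B-epoxide (CBE) were compared with those of WT mice injected with PBS, across all genes of the deposited count table. CBE is an irreversible inhibitor of acid beta-glucosidase (GCase), a lysosomal enzyme. The comparison takes 6 of the 14 libraries of the series, 3 WT + PBS and 3 WT + CBE, and each library came from the brain of 1 mouse aged 19 days. CBE was given intraperitoneally every day from day 8 at 100 mg/kg, and the controls carried no allele or agent other than PBS. The other 8 libraries came from MyTrMaSt null mice, which lack Myd88, Ticam1 (TRIF), Mavs and Tmem173 (STING), with PBS (3) or CBE (5); they entered the fit to share its estimate of the spread and 1 test named below. CBE was given systemically, so the model does not limit the loss of GCase to 1 cell type, and RNA from whole tissue does not separate cells.

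GCase splits glucosylceramide into glucose and ceramide, and when it is lost glucosylceramide and its deacylated form build up in lysosomes. In the brain of the neuronal forms of Gaucher disease, neurons die and both microglia and astrocytes become reactive. Microglia are the resident macrophages of the brain, astrocytes are glial cells that support synapses and vessels, and oligodendrocytes make myelin, a membrane rich in cholesterol and in galactosylceramide. Cells fit their cholesterol synthesis to supply through SREBP2, and their lysosomal genes through TFEB and TFE3.

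The WT libraries held 1290616 to 3547672 counts, and 1 of them stood apart. WT + PBS replicate 1 was the shallowest, and its Pearson correlation with the other WT + PBS libraries across tested genes was 0.883 and 0.884, against 0.979 between those. Among 8900 genes with a mean of at least 10 CPM (counts scaled to 1e6 per library) in WT + PBS, 24.4% differed at least 2-fold between WT + PBS replicate 1 and the mean of the other WT + PBS libraries, and 0.921% differed as much between replicates 2 and 3. The method counts the 3′ end of each transcript, so levels in CPM are not divided by gene length. Counts of called genes are therefore given with all 6 libraries, and also without WT + PBS replicate 1 where the count of a list then differs. The groups also differed in sex-linked transcripts. Xist, the long RNA that silences an X chromosome in females, had no count in the WT + PBS libraries and 47, 1 and 30 counts in WT + CBE, and Y-linked genes had 17, 64 and 40 counts in WT + PBS against 2, 44 and 0 in WT + CBE. CBE and sex were thus partly confounded, and WT + CBE replicate 2 was the only WT + CBE library with the pattern of the controls. The labels give no sex, and Xist is itself 1 of the genes called higher below.

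CBE acts on an enzyme and not on a transcript, so no gene of the table checks the labels of the treated mice. Gba2, the gene of the non-lysosomal glucosylceramidase, was at 63.2, 41.7 and 60.3 CPM in WT + PBS and 55.3, 44.6 and 47.0 CPM in WT + CBE, and its groups overlapped.

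Differences were tested with the edgeR quasi-likelihood F test, and a gene was called when the groups differed by 2-fold or more and the p adjusted by the Benjamini-Hochberg method was below 0.05. Of 11852 tested genes, 616 (5.20%) were called higher and 143 (1.21%) lower in WT + CBE. Without WT + PBS replicate 1, 699 of 12090 (5.78%) were higher and 96 (0.794%) lower. By adjusted p alone, 794 (6.70%) were higher and 461 (3.89%) lower with all libraries, and 1037 (8.58%) and 490 (4.05%) without that library. The 3 WT + CBE libraries lay above all 3 WT + PBS libraries for 15.1% of tested genes and below them for 12.8%. Of the 616 genes called higher, 579 were also called without WT + PBS replicate 1, and of the 143 called lower, 64 were. In a fit of the 6 WT libraries alone, 423 of 11057 tested genes were called higher and 36 lower, and in one of the 5 WT libraries without WT + PBS replicate 1, 695 of 11406 were higher and 105 lower. With Xist as a covariate, each library at its own level, 512 were called higher and 86 lower, of which 463 and 44 were among the 616 and 143.

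Among called genes, the rises were steeper than the falls and began from lower levels. A rise of at least 4-fold was seen for 325 genes and of at least 16-fold for 73, whereas 6 genes fell at least 4-fold and 1 of these at least 8-fold. The median level in WT + PBS was 4.49 CPM for genes called higher and 51.6 CPM for genes called lower, against 28.4 CPM for all tested genes. The median log2 fold change of all tested genes was -0.02. Interferon-stimulated genes, the best known part of this response, made up 81 of the 616 genes called higher; of 91 members tested, 81 were called higher and none lower. The remaining 535 genes called higher and all 143 called lower lay outside that list, and are described below by cell type and function. The list does not hold every interferon-induced gene: Rtp4 and Epsti1, both known to respond to interferon, are among the genes called higher that are not on it. Of all called genes outside the interferon list, 188 called higher and 40 called lower belonged to another of the lists used.

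**Figure D1:**
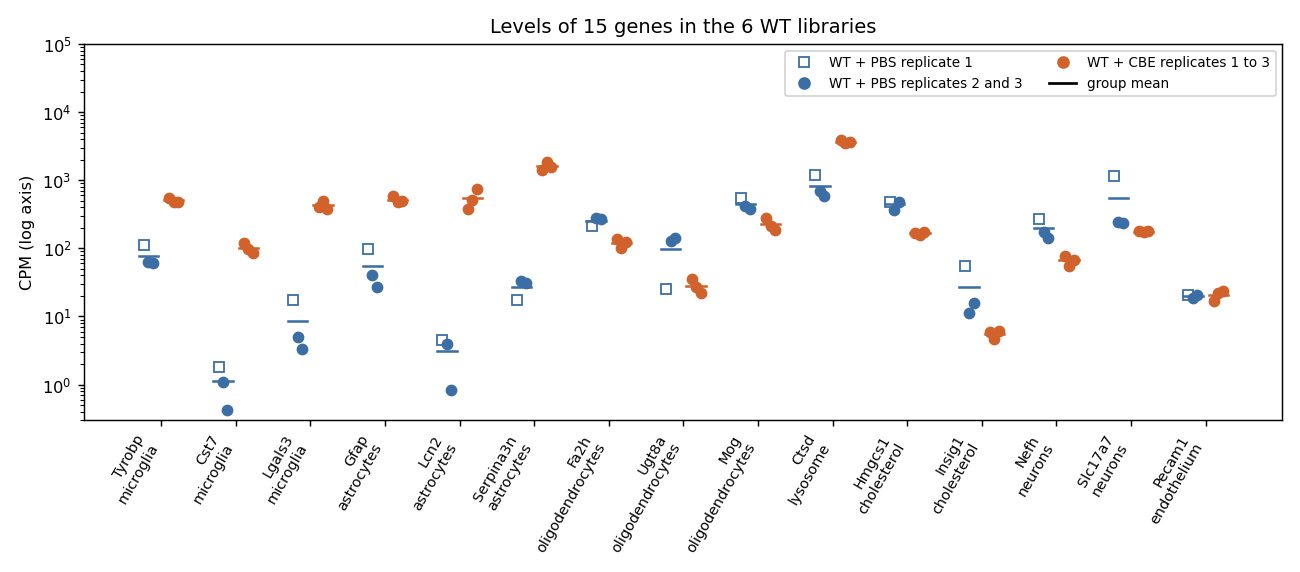
Levels in CPM (log axis) of 15 genes in each of the 6 WT libraries, with the group means as lines; open squares mark WT + PBS replicate 1. The WT + CBE libraries lie above all WT + PBS libraries for the microglial, reactive astrocyte and lysosomal genes and below them for Fa2h, Mog, Hmgcs1, Insig1, Nefh and Slc17a7, the Slc17a7 mean of WT + PBS being set by 1 library, while the Ugt8a and Pecam1 groups overlap.

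Microglial and other myeloid transcripts rose together. Of 26 general myeloid genes tested, 25 were called higher and none lower (25 and 0 without WT + PBS replicate 1), with a median log2 fold change of 2.65, or 2.60 with members at or under 3 counts in each WT + PBS library set against 3 counts. Aif1, which encodes the microglial calcium-binding protein IBA1, was at 23.5, 7.18 and 12.2 CPM in WT + PBS and 80.6, 83.1 and 78.9 CPM in WT + CBE. The rise was 2.68 ± 0.31 on the log2 scale (SE; adjusted p = 9.09e-06), and the groups did not overlap. Ptprc, the leukocyte antigen CD45, was lower in level but moved the same way, from 2.71, 1.66 and 1.27 to 24.1, 17.4 and 21.7 CPM. Itgb2, the shared chain of the leukocyte integrins, rose by 3.86 ± 0.30 on the log2 scale, and Mpeg1, a pore-forming protein of macrophages, by 3.52 ± 0.28. Cybb, the catalytic subunit of the phagocyte NADPH oxidase, had 0, 3 and 2 counts in the WT + PBS libraries and was 39.5-fold higher (95% counting interval 16.6 to 123) with CBE, the ratio of summed counts with an exact interval that covers counting error only. The summed level of the list was 462, 335 and 381 CPM in WT + PBS and 1935, 1826 and 1844 CPM in WT + CBE. In homogenised brain, more or fewer cells of a type and more or less RNA per cell cannot be told apart, here and in every cell type below.

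Genes that distinguish resting microglia moved less than those of the disease-associated state. Of 13 homeostatic genes tested, 6 were called higher and none lower (9 without WT + PBS replicate 1 and 4 in the 6 WT libraries alone), with a median of 0.98. The difference between these lists was not tested. Cx3cr1, the fractalkine receptor, was at 6.32, 26.5 and 26.6 CPM in WT + PBS and 84.1, 62.4 and 87.4 CPM in WT + CBE, a log2 fold change of 1.85 ± 0.31 (adjusted p = 0.000448). Fcrls, a microglial Fc receptor-like protein, rose by 1.93 ± 0.21, and its groups did not overlap. P2ry12, the purinergic receptor that guides microglial processes, was at 2.71, 30.1 and 34.6 CPM in WT + PBS and 27.1, 22.1 and 27.7 CPM in WT + CBE, so that the WT + CBE libraries lay just under the deeper WT + PBS libraries and far over the first. It was not called (adjusted p = 0.963, and 0.409 without WT + PBS replicate 1). Tmem119, a microglial membrane protein, was at 46.0, 32.1 and 22.8 and 64.0, 42.2 and 60.9 CPM with overlapping groups, and passed the thresholds only without WT + PBS replicate 1.

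Of 31 genes of disease-associated microglia, 22 were called higher and none lower (24 without WT + PBS replicate 1), with a median of 2.14, and of 1.95 without that library. The list includes both the receptor Trem2 with its adaptor and other genes that mark the state. Trem2, the lipid-sensing receptor of microglia, was at 74.0, 43.4 and 39.2 CPM in WT + PBS and 336, 294 and 287 CPM in WT + CBE. Tyrobp, which encodes its signalling adaptor DAP12, was at 111, 63.0 and 60.3 and 545, 481 and 484 CPM. Both rose about equally, by 2.60 ± 0.20 and 2.72 ± 0.21 on the log2 scale, without overlap of the groups. Cst7, which encodes the protease inhibitor cystatin F, went from 1.80, 1.11 and 0.422 to 119.6, 96.2 and 85.0 CPM, a log2 fold change of 6.60 ± 0.40 (adjusted p = 4.05e-09). Lgals3, galectin-3, went from 17.1, 4.97 and 3.37 to 410.0, 494 and 376 CPM, and its log2 fold change was 5.96 ± 0.37. Spp1, the secreted phosphoprotein osteopontin, rose by 4.37 ± 0.21 to 561, 592 and 527 CPM. Apoe, the main lipid carrier of the brain, which astrocytes make as well, was already among the most abundant transcripts in WT + PBS, at 6601, 4169 and 4785 CPM. It reached 9597, 9679 and 9633 CPM in WT + CBE, one of the 8 greatest gains in level of any gene, at a log2 fold change of 0.89 ± 0.17 (adjusted p = 0.00159) that stayed under 2-fold.

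Several genes that are not on the interferon list were almost silent in WT + PBS. Irg1 (Acod1), the mitochondrial enzyme that makes itaconate, is known to be induced in macrophages by bacterial products and by interferons. It had no count in any WT + PBS library and was at 15.7, 12.2 and 16.3 CPM in WT + CBE, at least 9.20-fold higher against a floor of 3 counts per library. Lilrb4a, an inhibitory immunoglobulin-like receptor, had 1, 3 and 1 counts in WT + PBS and 99.8, 101 and 88.0 CPM in WT + CBE, 138-fold higher (95% counting interval 59.0 to 427). Lilr4b, its close paralog and neighbour, was 113-fold higher (95% counting interval 30.9 to 938), and reads could have been split between the pair. Cyp4f18, a leukotriene-metabolising cytochrome, was 85.4-fold higher (95% counting interval 14.9 to 3413), and AI607873, without a count in WT + PBS, was at least 9.06-fold higher. All of these were called without overlap of the groups, but for genes named by their fold both were conditions of being picked.

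Markers of border macrophages were low in level and some rose, and few markers of blood cells were tested. Of 7 border macrophage genes tested, 3 were called higher, 4 without WT + PBS replicate 1, which added Stab1, and 1 in the 6 WT libraries alone. Their median log2 fold change was 1.24, and their summed level was 28.9, 19.9 and 19.8 CPM in WT + PBS and 68.7, 63.8 and 57.2 CPM in WT + CBE, without overlap. Ms4a7 rose from 1.80, 0 and 1.27 to 24.1, 32.4 and 24.7 CPM, 37.9-fold (16 to 118), whereas Mrc1, the mannose receptor of perivascular macrophages, was at 0, 1.93 and 2.11 and 6.11, 2.35 and 2.41 CPM and not called (adjusted p = 0.175). Lyve1, another marker of those cells, was called higher with a log2 fold change of 1.81 ± 0.52 at 8.44, 4.22 and 6.03 CPM. Of 10 neutrophil genes, 2 were in the table and their counts summed to at most 4 per WT library. No neutrophil and no B cell gene passed the filter, and of 3 genes of T and NK cells tested none was called. Of 2 monocyte genes tested 1 was called, S100a4, a calcium-binding protein also made by other cells, which rose by 2.61 ± 0.34. The list of red cells gave 1 tested gene, which was not called.

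**Figure D2:**
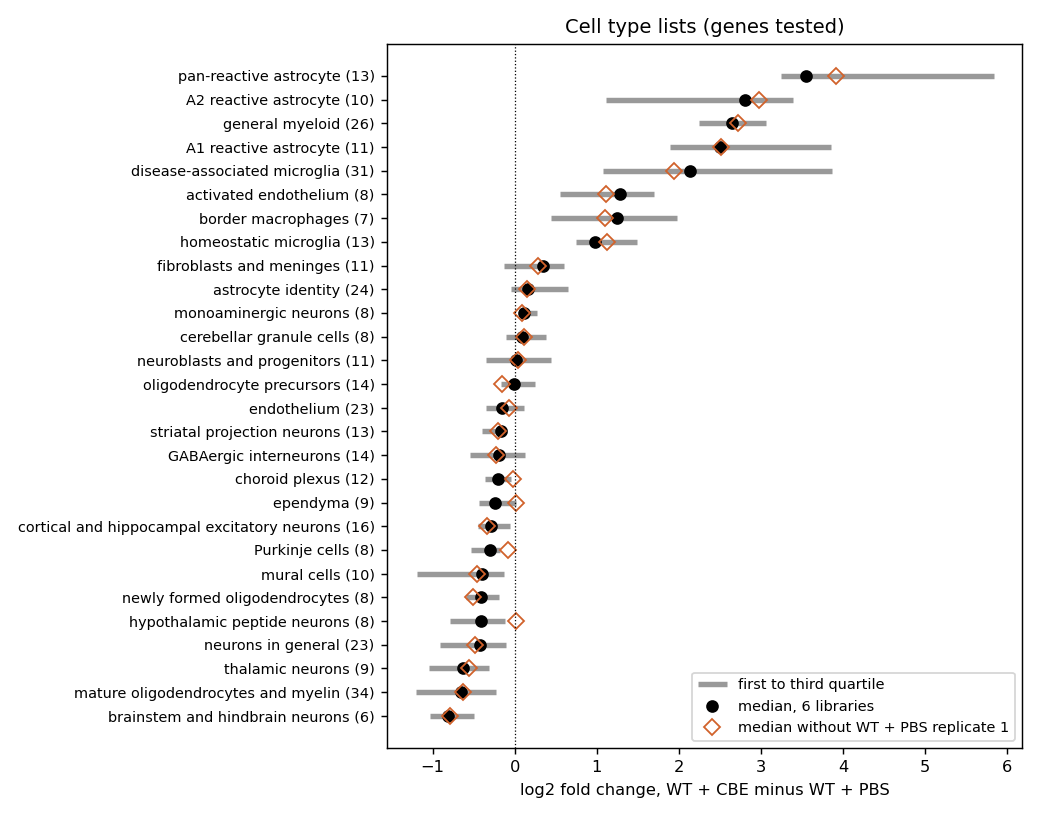
Median log2 fold change (WT + CBE minus WT + PBS) of each cell type list with at least 5 tested genes, with the quartiles as grey bars and the median without WT + PBS replicate 1 as open diamonds; the number of genes is in brackets. With all 6 libraries, the reactive astrocyte, general myeloid and disease-associated microglia lists lie above 2, and mature oligodendrocytes and myelin at -0.65. Disease-associated microglia lie at 1.95 without WT + PBS replicate 1.

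Genes of reactive astrocytes had the highest median of the cell type lists. All 13 genes of the pan-reactive astrocyte list were called higher, with and without WT + PBS replicate 1, and the median log2 fold change was 3.55. Gfap, the intermediate filament that defines reactive astrocytes, was at 98.4, 40.6 and 27.4 CPM in WT + PBS and 579.6, 480.1 and 498 CPM in WT + CBE. The log2 fold change was 3.31 ± 0.31 (adjusted p = 5.6e-07). Vim, vimentin, rose with it from 95.7, 133 and 130.4 to 818, 1017 and 929 CPM. Lcn2, the iron-binding secreted protein lipocalin 2, was at 4.51, 3.87 and 0.844 CPM in WT + PBS and 380.3, 519 and 749.6 CPM in WT + CBE. The log2 fold change of 7.52 ± 0.53 (adjusted p = 2.21e-08) was the highest of any called gene outside the interferon list with more than 3 counts in a WT + PBS library, and the WT + CBE libraries differed widely among themselves. Serpina3n, a secreted protease inhibitor, went from 17.1, 33.2 and 30.8 to 1412, 1843 and 1582 CPM, a log2 fold change of 5.83 ± 0.30. Timp1, the inhibitor of matrix metalloproteinases, went from 2.71, 1.11 and 1.69 to 89.3, 117 and 81.9 CPM. S1pr3, a receptor for sphingosine 1-phosphate that is also on this list, went from 7.22, 10.8 and 10.1 to 125, 111 and 110.3 CPM. The summed level of the list was 259, 258 and 229 CPM in WT + PBS and 4148, 4614 and 4681 CPM in WT + CBE.

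Markers given to the A1 and A2 forms of reactive astrocytes were both raised. Of 11 A1 genes tested 10 were called higher (median 2.50), and of 10 A2 genes 5 (median 2.81, or 2.12 with genes at or under 3 counts set against 3), none lower in either. Among A1 genes, C3, the central complement component, went from 1.80, 1.66 and 1.27 to 62.0, 43.2 and 43.4 CPM. Serping1, the inhibitor of C1, rose by 1.97 ± 0.21, and Gbp2, an interferon-induced GTPase, by 4.59 ± 0.34. Of the A1 genes called, 6 are also on the interferon list, Gbp2 and Serping1 among them. Among A2 genes, Ptx3, the secreted pattern recognition protein pentraxin 3, had 2, 1 and 2 counts in WT + PBS and was 104-fold higher (95% counting interval 44.2 to 321) with CBE. Cd14, the lipopolysaccharide co-receptor, which myeloid cells make as well, rose by 3.06 ± 0.34.

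Few of the genes that define astrocytes in the resting brain were called. Of 24 identity genes tested, 2 were called higher and 2 lower (2 and 1 without WT + PBS replicate 1), against 5.20% and 1.21% of all tested genes. Of the 24, 17 had a positive and 7 a negative log2 fold change, and the median was 0.17. Aqp4, the water channel of astrocyte endfeet, was at 35.2, 83.7 and 89.0 CPM in WT + PBS and 303, 269 and 176 CPM in WT + CBE, a rise of 1.81 ± 0.27 (adjusted p = 0.000176). Sox9, a transcription factor of the lineage, was at 2.71, 38.7 and 54.0 CPM in WT + PBS, the first library far below the others, and rose by 1.53 ± 0.39 with that library and by 1.13 without it. Btbd17 fell from 106, 62.2 and 82.3 to 34.0, 28.2 and 37.4 CPM, with a log2 fold change of -1.31 ± 0.19 and of -1.11 without WT + PBS replicate 1. Slc7a10, a transporter of D-serine, fell with all libraries (-1.14) and missed 2-fold without that library (-0.81). The summed level of the identity genes was 5844, 6481 and 6901 CPM in WT + PBS and 7621, 7087 and 7307 CPM in WT + CBE.

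Transcripts of mature oligodendrocytes fell. Of 34 myelin and oligodendrocyte genes tested, 12 were called lower and none higher, and 18 were lower by adjusted p alone. Without WT + PBS replicate 1 the numbers were 6 and 20, with the Xist level as a covariate 7 were called, and in the fit of the 6 WT libraries alone 4. The median log2 fold change was -0.65, and -0.63 without WT + PBS replicate 1. Gsn, gelsolin, an actin-severing protein rich in oligodendrocytes, was at 652, 388 and 473 CPM in WT + PBS and 251, 172 and 205 CPM in WT + CBE. The groups did not overlap, and the log2 fold change was -1.26 ± 0.18 (adjusted p = 9.88e-05), and -1.02 without WT + PBS replicate 1.

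Enzymes of myelin lipids were among the genes called lower. Ugt8a, ceramide galactosyltransferase, which makes galactosylceramide, was at 25.3, 128 and 140.5 CPM in WT + PBS and 35.8, 27.2 and 21.7 CPM in WT + CBE. The first WT + PBS library lay among the WT + CBE libraries, and the log2 fold change went from -1.81 ± 0.40 to -2.19 without it (adjusted p = 1.87e-07). Fa2h, the hydroxylase that gives myelin sphingolipids their hydroxylated fatty acid, fell from 209, 274 and 269 to 138, 101 and 125 CPM, with a log2 fold change of -1.05 ± 0.16 that was as large without that library (-1.15). Gal3st1, which sulfates galactosylceramide to sulfatide, had a log2 fold change of -1.24 ± 0.30 with all libraries and of -0.76 without WT + PBS replicate 1. Ermn, a cytoskeletal protein of late oligodendrocytes, was low, at 5.41, 18.5 and 21.5 and 7.27, 2.35 and 7.83 CPM, and had overlapping groups. Ppp1r14a, a phosphatase inhibitor of the lineage, was at 213, 68.2 and 40.9 CPM in WT + PBS and 37.0, 22.1 and 35.6 CPM in WT + CBE. It fell with all libraries (-1.70) and did not reach 2-fold without it (-0.79).

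The structural myelin proteins changed by less than 2-fold but from very high levels. Mbp, myelin basic protein, was at 12836, 9375 and 9802 CPM in WT + PBS and 7632, 5947 and 6418 CPM in WT + CBE, the greatest loss in level of any gene. The groups did not overlap, and the log2 fold change was -0.68 ± 0.17 (adjusted p = 0.014), and -0.51 without WT + PBS replicate 1. Cnp, the myelin phosphodiesterase, had log2 fold changes of -0.90 and -0.70 with and without that library, past the adjusted p threshold in both. Mog, the outermost myelin glycoprotein, went from 557, 414 and 373 to 278, 209 and 185 CPM, a log2 fold change of -0.99 ± 0.18. The list's summed level was 25318, 22678 and 21709 CPM in WT + PBS and 17368, 13351 and 14488 CPM in WT + CBE. None of 8 genes of newly formed oligodendrocytes was called (median -0.41). Of 14 genes of their precursors 1 was called lower, C1ql1, which was not called without WT + PBS replicate 1 (log2 fold change -0.88); the median of the precursor list was -0.01.

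No gene of the endothelium list was called, while some genes of activated endothelium were called higher. Gkn3, an arterial marker called lower and described below, is not on the endothelium list. Of 23 endothelial genes tested, the median was -0.15. Of 8 genes of activated endothelium, 5 were called higher, 5 without WT + PBS replicate 1, 4 with the Xist level as a covariate, and 2 in the 6 WT libraries alone. Icam1, an adhesion molecule for leukocytes, was at 4.51, 5.53 and 3.37 CPM in WT + PBS and 38.4, 36.6 and 67.5 CPM in WT + CBE, a log2 fold change of 3.34 ± 0.35. Vcam1, another adhesion molecule, rose by 1.36 ± 0.28. Both are also made by glia. Of 10 mural cell genes 1 was called lower, Rgs5, a pericyte marker, at 14.4, 11.1 and 13.9 and 3.78, 5.63 and 7.23 CPM, which was not called with the Xist level as a covariate or in the 6 WT libraries alone. No gene of the choroid plexus, ependyma, fibroblast and meninges lists was called with all libraries. Without WT + PBS replicate 1, 1 ependyma gene was called higher, Rarres2, which encodes the chemoattractant chemerin (1.05, against 0.57 with all libraries).

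Most genes of neurons in general had negative log2 fold changes, but few were called, and part of the calls rested on 1 library. Of 23 such genes, 20 were negative, 2 were called lower and 9 were lower by adjusted p alone, with a median of -0.42. The last 2 counts were 2 and 11 without WT + PBS replicate 1, and in the 6 WT libraries alone 1 gene was called lower. The summed level was 20499, 17693 and 17986 CPM in WT + PBS and 13186, 13436 and 12882 CPM in WT + CBE, without overlap. Nefh, the heavy neurofilament of large axons, was at 267, 176 and 143 CPM in WT + PBS and 77.4, 54.4 and 66.9 CPM in WT + CBE. It fell with all libraries (-1.54 ± 0.25, adjusted p = 0.000291) and without the first (-1.25). Stmn3, a stathmin that regulates microtubules, was at 3501, 1720.0 and 1741 CPM in WT + PBS and 1235, 1174 and 807 CPM in WT + CBE, and its log2 fold change moved from -1.11 to -0.68 without the first library. Uchl1, the neuronal deubiquitinase, and Thy1, a neuronal surface glycoprotein, were lower by adjusted p with and without that library, at log2 fold changes of -0.63 and -0.48 for Uchl1 and of -0.98 and -0.43 for Thy1.

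Slc17a7 shows how far the first control library can carry a call. It encodes VGLUT1, the vesicular glutamate transporter of cortical neurons, and was at 1146, 242 and 236 CPM in WT + PBS and 178, 174 and 178 CPM in WT + CBE. The log2 fold change was -1.60 ± 0.43 (adjusted p = 0.0212) with all libraries and -0.43 (adjusted p = 0.109) without WT + PBS replicate 1. Eef1a2, the neuronal elongation factor, was at 2036, 421 and 558 CPM in WT + PBS and 278, 314 and 281 CPM in WT + CBE, and its log2 fold change went from -1.78 to -0.74. Gm12338, annotated as a processed pseudogene, went from -2.10 to -0.48. Over all tested genes, 1.21% were called lower with all libraries and 0.794% without WT + PBS replicate 1. The counts of called genes in the lists of synaptic vesicle release (2 of 26 lower), microtubules and axonal transport (4 of 30), voltage-gated channels (1 of 34) and the nuclear-encoded respiratory chain (1 of 78) became 0, 1, 0 and 0 without that library. The number lower by adjusted p alone did not fall with it in most of these lists: it went from 6 to 8 for vesicle release and from 5 to 7 for channels, was 9 in both fits for microtubules and transport, and went from 7 to 4 for the respiratory chain. Vamp2, the vesicle SNARE, was lower by adjusted p in both cases, at -1.33 and -0.67. No gene of the glutamate receptor (20 tested) or GABA and glycine receptor (15) lists was called in either fit, while by adjusted p alone 0 and 1 were lower with all libraries and 3 and 2 without WT + PBS replicate 1.

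**Figure D3:**
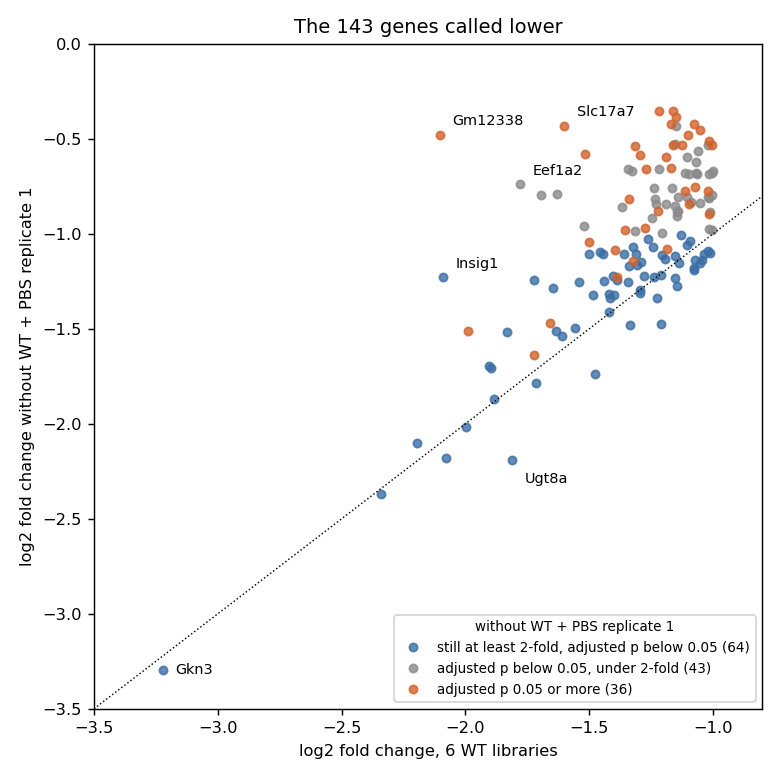
Log2 fold changes of the 143 genes called lower with all 6 WT libraries (x axis) against those without WT + PBS replicate 1 (y axis), the dotted line marking equal values. All 143 lie below 0 on both axes; 64 keep the call, 43 keep only an adjusted p below 0.05, and 36, Slc17a7 and Gm12338 among them, keep neither.

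Lists of single neuron types held few called genes. Of 9 thalamic genes tested, 2 were called lower with and without WT + PBS replicate 1 and 1 in the 6 WT libraries alone, and their median was -0.63. Ramp3, a receptor activity-modifying protein of thalamic relay neurons, was at 54.1, 35.1 and 35.9 CPM in WT + PBS and 11.6, 14.1 and 20.5 CPM in WT + CBE, with no overlap and a log2 fold change of -1.44 ± 0.26. Tnnt1, a troponin present in thalamic neurons, fell from 23.5, 10.8 and 10.5 to 4.07, 3.29 and 6.03 CPM (-1.65 on the log2 scale). Brainstem and hindbrain genes had a median of -0.82 over 6 genes with none called. Of 16 genes of cortical and hippocampal excitatory neurons 1 was called lower, Slc17a7, and 4 were lower by adjusted p alone (0 and 3 without WT + PBS replicate 1). The median was -0.29 for these, for genes of GABAergic interneurons -0.19 and for those of cerebellar granule cells 0.09, and the differences between these lists were not tested. Of 23 immediate early genes, which follow neuronal activity, 1 was called lower: Arc, which acts at active synapses, fell from 143, 206 and 199.5 to 83.2, 75.6 and 91.0 CPM, a log2 fold change of -1.14 ± 0.19 and -1.28 without WT + PBS replicate 1. Without that library 2 were called, the other being Nr4a1, an orphan nuclear receptor (-0.91 with all libraries and -1.09 without it).

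Lysosomal genes rose in part. Of 48 hydrolases and activators tested, 14 were called higher and none lower (15 without WT + PBS replicate 1), with a median of 0.57; of 26 membrane proteins and transporters 5 were higher and none lower (median 0.24, and 4 without that library), and of 17 subunits of the vacuolar proton pump none was higher and 1 was lower, the last only with WT + PBS replicate 1. Ctsd, the aspartic protease cathepsin D, at chr7:142375911-142388038, minus strand (mm10), had the greatest gain of any hydrolase. It was at 1209, 687 and 578 CPM in WT + PBS and 3886, 3531 and 3639 CPM in WT + CBE, a log2 fold change of 2.16 ± 0.21 (adjusted p = 7.59e-07), and it also belongs to the list of disease-associated microglia. Ctss, cathepsin S, which myeloid cells make, rose by 2.72 ± 0.19, Ctsz, cathepsin Z, by 2.75 ± 0.28, and Ctsc, which activates serine proteases of myeloid granules, by 3.09 ± 0.25. Gusb, beta-glucuronidase, was at 9.02, 13 and 9.28 CPM in WT + PBS and 69.5, 66.6 and 62.7 CPM in WT + CBE, a log2 fold change of 2.61 ± 0.19. Gla, alpha-galactosidase A, rose by 1.27 ± 0.34.

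Among membrane and transport genes, Grn, the secreted and lysosomal glycoprotein progranulin, went from 195, 131 and 129 to 776, 888 and 660.4 CPM, a log2 fold change of 2.37 ± 0.18. Slc15a3, a lysosomal transporter of histidine and peptides in myeloid cells, rose by 5.35 ± 0.36 from 1.80, 0.829 and 2.53 CPM, and Slc11a1, the metal transporter of phagosomes, by 3.79 ± 0.32. The rises of Lamp2, by 1.03 ± 0.20, and Lamp1, by 0.43 ± 0.12, were smaller than those of Grn, Slc15a3 and Slc11a1. Differences between these genes were not tested. Lamp1 was at 950.3, 945 and 820.1 CPM in WT + PBS and 1258, 1187 and 1204 CPM in WT + CBE. This rise of Lamp1 stayed under 2-fold (adjusted p = 0.0274). None of 29 genes of autophagy and mTORC1 was called.

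The promoters of lysosomal genes were searched for the E-box TCACGTGA, the site of TFEB and TFE3, which reads the same on both strands. RefSeq promoters (GRCm38.p6, 250 bases before to 50 after the start) were found for 70 tested genes of the hydrolase, membrane and pump lists, and 11 (15.7%) held it, against 2.18% of 9066 tested genes with a promoter. Among lysosomal genes called higher the share was 2 of 14 (14.3%), and among those not called 9 of 55 (16.4%). Ctsd and Gla were the ones called, and stretches of their promoters are shown for that reason, with the E-box in capitals, read 5′ to 3′ along the gene.
Ctsd, chr7:142387884-142387961, minus strand: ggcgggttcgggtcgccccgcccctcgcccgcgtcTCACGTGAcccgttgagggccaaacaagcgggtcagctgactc
Gla, chrX:134601158-134601235, minus strand: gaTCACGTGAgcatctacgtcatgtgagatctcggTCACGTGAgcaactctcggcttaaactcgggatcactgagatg
The match in Ctsd begins 99 bases before the RefSeq start, and those in Gla 228 and 195 bases before it. The GENCODE record of Ctsd given above reaches further upstream, so that this match lies inside it. The share differed by list: among hydrolases and activators it was 2 of 10 called higher and 2 of 27 not called (7.41%), and among membrane proteins and transporters none of 4 and 4 of 17 (23.5%). These differences were not tested, and a match does not say that a site is bound.

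Genes of cholesterol synthesis fell. Of 24 genes of cholesterol synthesis and uptake tested, 8 were called lower and none higher, and 11 were lower by adjusted p; without WT + PBS replicate 1 the numbers were 10 and 15. With the Xist level as a covariate 3 were called, and in the 6 WT libraries alone 4. The median log2 fold change was -0.90, and 22 of 24 members had a negative sign. Hmgcs1, HMG-CoA synthase, an early enzyme of the pathway, was at 481, 369 and 472 CPM in WT + PBS and 169, 158 and 174 CPM in WT + CBE. The groups were far apart and the log2 fold change was -1.40 ± 0.15 (adjusted p = 4.46e-06), and -1.32 without WT + PBS replicate 1.

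Later enzymes and regulators were lower too. Fdps, farnesyl diphosphate synthase, had a log2 fold change of -1.52 ± 0.29 with all libraries and -0.96 without the first. Sqle, squalene epoxidase, was lower by adjusted p with all libraries (-0.96) and passed 2-fold without the first (-1.14). Insig1, the ER anchor that holds back SREBP and is itself a target of it, was at 54.1, 11.1 and 15.6 and 5.82, 4.69 and 6.03 CPM. The fall of Insig1 was steeper with the first control library (-2.09) than without it (-1.23). The summed level of the pathway was 1677, 1317 and 1431 CPM in WT + PBS and 732, 733 and 738 CPM in WT + CBE, nearly equal in the WT + CBE libraries.

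A sterol regulatory element, TCACNCCAC on either strand, was found in the promoter of 1 of 17 genes of this list with a RefSeq promoter (5.88%), against 1.48% of tested genes. That gene was Hmgcs1, and the stretch is shown because the groups of Hmgcs1 were far apart. The element is in capitals and begins 137 bases before the RefSeq start.
Hmgcs1, chr13:119690179-119690257, plus strand: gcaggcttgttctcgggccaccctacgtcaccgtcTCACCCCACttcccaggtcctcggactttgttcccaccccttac

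Some genes that export or store lipid rose. Of 18 genes of cholesterol efflux and lipoproteins, 4 were called higher and none lower (6 without WT + PBS replicate 1 and 2 in the 6 WT libraries alone). Ch25h, the enzyme that makes 25-hydroxycholesterol, was at 1.80, 1.93 and 1.27 CPM in WT + PBS and 42.5, 22.5 and 36.8 CPM in WT + CBE, a log2 fold change of 4.30 ± 0.42; it is also interferon-stimulated. Abca1, the exporter of cholesterol to lipoproteins, was at 2.71, 12.2 and 21.5 CPM in WT + PBS and 36.1, 33.3 and 38.6 CPM in WT + CBE, a rise of 1.43 ± 0.33 with the first control library and of 1.14 without it. Apobec1, the editing enzyme of Apob mRNA, which macrophages make, rose by 3.67 ± 0.33. Of 12 lipid droplet genes 2 were called higher: Plin2, the coat protein of droplets, went from 5.41, 8.01 and 6.33 to 40.4, 39.0 and 34.9 CPM, and Plin4 rose by 3.27 ± 0.43. Of 17 genes of fatty acid synthesis none was called with all libraries, and Scd1 and Elovl6 were called lower without the first (-1.06 and -1.25).

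No gene of sphingolipid synthesis outside myelin was called. Of 18 genes of sphingolipid synthesis tested, 3 were called lower, the myelin enzymes Ugt8a, Fa2h and Gal3st1 (2 without WT + PBS replicate 1, 2 with the Xist level as a covariate, and 1, Fa2h, in the 6 WT libraries alone), and the median was -0.06. Ugcg, which makes the glucosylceramide that GCase degrades, was at 9.02, 42.6 and 52.3 CPM in WT + PBS and 30.0, 27.2 and 32.5 CPM in WT + CBE and was not called (adjusted p = 0.652). Of 9 genes of sphingosine 1-phosphate signalling, 2 were called higher, the receptor S1pr3 and Sgpl1, the lyase that ends sphingolipid breakdown, which went from 9.02, 38.1 and 38.8 to 119.9, 143 and 113 CPM (2.02 ± 0.29 on the log2 scale).

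**Figure D4:**
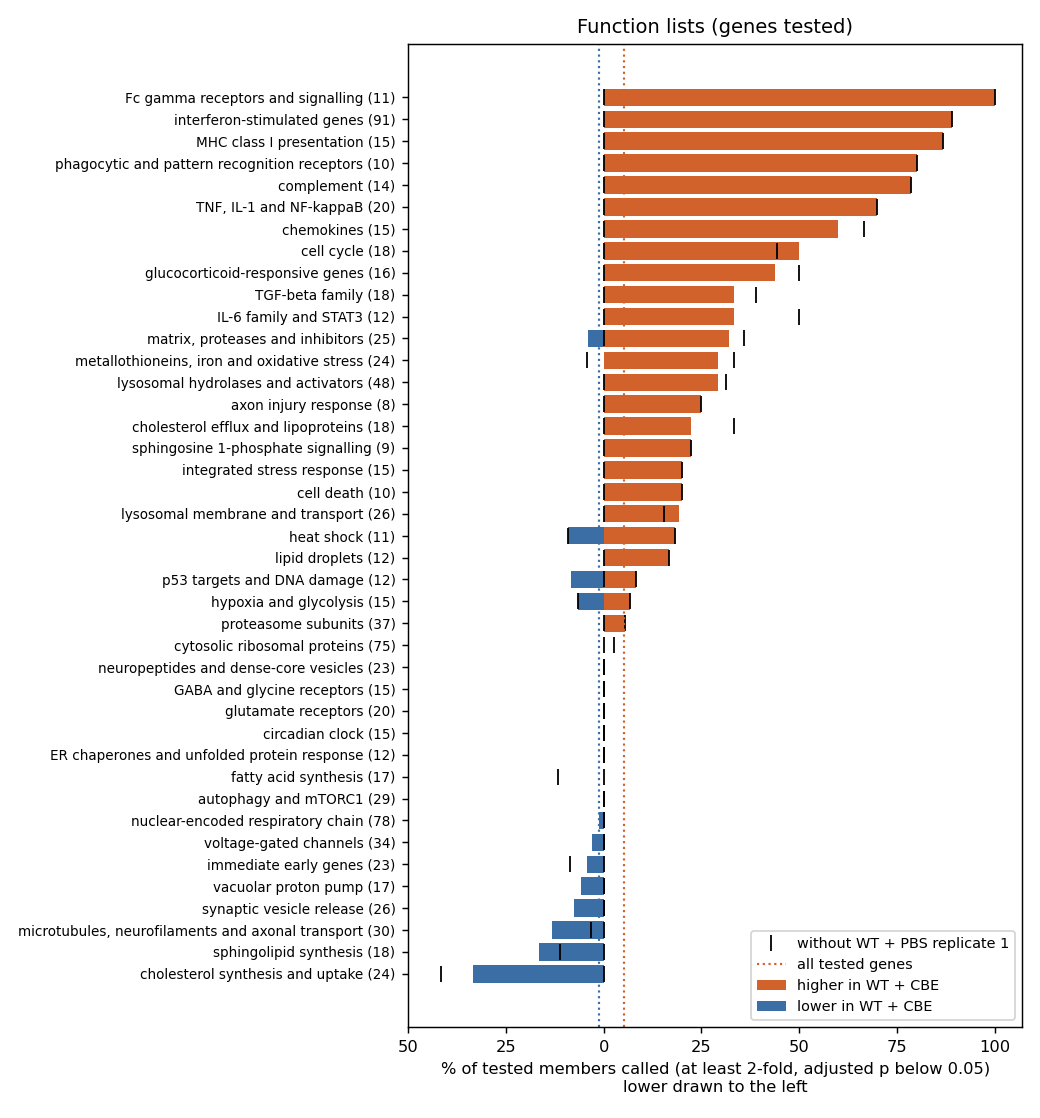
Share of the tested members of each function list called higher (orange, to the right) or lower (blue, to the left) in WT + CBE, in percent, with black ticks for the share without WT + PBS replicate 1 and dotted lines for all tested genes (5.20% and 1.21%). The immune lists lead on the right, cholesterol synthesis and uptake leads on the left, and the neurotransmitter receptor, autophagy, ER chaperone and clock lists have no called gene.

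Immune lists other than the interferon list had many called genes. Those also on the interferon list were 1 of the complement genes called, 2 of the chemokines, none of the Fc receptor or TNF genes, and 9 of the 13 called genes of MHC class I presentation. Of 14 complement genes tested, 11 were called higher and none lower (median 2.74, or 2.42 with genes at or under 3 counts set against 3). C1qa, a chain of the first component, which microglia make, was at 322, 163 and 171 CPM in WT + PBS and 1416, 1149 and 1317 CPM in WT + CBE, a log2 fold change of 2.58 ± 0.21. C1qb and C1qc, the other chains, rose by 2.47 ± 0.20 and 2.90 ± 0.18. C4b, made by astrocytes and oligodendrocytes, went from 34.3, 10.2 and 21.9 to 142, 150.2 and 159.7 CPM. Cfb, of the alternative pathway, was at 0, 0 and 2.11 CPM in WT + PBS and 21.5, 16.9 and 20.5 CPM in WT + CBE. All 11 genes of Fc gamma receptors and their signalling were called higher in both fits (median 2.16). Fcgr2b, the inhibitory receptor, went from 0.902, 1.11 and 3.37 to 62.8, 78.8 and 55.4 CPM, Fcgr3, an activating one, rose by 2.61 ± 0.22, and Fcer1g, their common chain, by 3.07 ± 0.24.

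Of 10 phagocytic and pattern recognition receptors, 8 were called higher. Tlr2, which senses bacterial lipopeptides, rose by 4.06 ± 0.36 to 47.4, 42.2 and 44.0 CPM. Cd300lf, a receptor for ceramide and phosphatidylserine, was 41.0-fold higher (95% counting interval 15.7 to 152), from 0, 2 and 2 counts in WT + PBS. Of 15 chemokines tested, 9 were called higher (10 without WT + PBS replicate 1). Ccl2, the main attractant of monocytes, had 1, 2 and 0 counts in WT + PBS and 75.1, 59.6 and 68.7 CPM in WT + CBE, 163-fold higher (95% counting interval 55.6 to 795). Ccl3 went from 0.902, 1.38 and 0.844 to 71.0, 52.1 and 62.1 CPM and Ccl12 from 0, 2.21 and 1.27 to 61.1, 45.1 and 72.3 CPM. Cxcl10, an interferon-induced chemokine, rose by 6.29 ± 0.42.

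In the list of TNF, IL-1 and NF-kappaB, 14 of 20 genes were called higher and none lower (median 1.70). Tnf itself was low, with 0, 1 and 1 counts in WT + PBS and 5.24, 6.57 and 4.82 CPM in WT + CBE, 19.6-fold higher (95% counting interval 5.09 to 168). Its receptor Tnfrsf1a was at 27.1, 27.4 and 26.2 CPM in WT + PBS, very close among the controls, and 139.9, 122 and 114 CPM in WT + CBE. Tnfaip2, a target of TNF, was 40.6-fold higher (95% counting interval 18.4 to 112). Of 12 genes of the IL-6 family, 4 were called higher (6 without WT + PBS replicate 1), among them Osmr, the oncostatin M receptor (3.24 ± 0.37), and Socs3, the feedback inhibitor of STAT3 (2.90 ± 0.56). In the TGF-beta family 6 of 18 were called higher (7 without it), among them the receptor Tgfbr2 (1.49 ± 0.22) and Tgfbi, a matrix protein that TGF-beta induces (3.24 ± 0.33).

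Genes of MHC class I and class II presentation both had called members. Of 15 class I genes 13 were called higher (median 2.69, or 2.55 with the gene under 3 counts set against 3), and of 6 class II genes 3 (median 1.05), and the difference between these lists was not tested. B2m, the light chain of class I molecules, was at 4.51, 140.1 and 152 CPM in WT + PBS and 1115, 928 and 893 CPM in WT + CBE, and its log2 fold change was 3.25 with the first control library and 2.76 without it. H2-K1 and H2-D1, heavy chains that share much of their sequence, rose by 2.98 ± 0.21 and 2.72 ± 0.15, Tap1, of the peptide transporter, by 3.92 ± 0.28, and Psmb8, a subunit of the immunoproteasome, by 3.66 ± 0.21. Without WT + PBS replicate 1 the class II count was 4, with Cd74, the invariant chain, added, and in the 6 WT libraries alone and with the Xist level as a covariate it was 1. Of the class II chains, H2-Ab1 rose from 5.41, 2.49 and 1.27 to 8.44, 13.6 and 7.83 CPM and H2-Aa from 4.51, 4.70 and 5.48 to 11.3, 10.3 and 13.9 CPM.

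Metallothioneins gave the greatest gains in level. Mt1 and Mt2 encode small proteins that bind zinc and copper. Mt2 was at 1236, 1085 and 746 CPM in WT + PBS and 5782, 6374 and 7099 CPM in WT + CBE, a log2 fold change of 2.65 ± 0.24 (adjusted p = 4.64e-07). Mt1 was at 2143, 1533 and 1207 and 6059, 6336 and 6462 CPM. Together they added 10054 CPM, 16.4% of the summed gain of all genes higher by adjusted p. In their list, 7 of 24 genes of metals and oxidative stress were called higher and none lower, and 8 and 1 without WT + PBS replicate 1. Hmox1, heme oxygenase, rose by 3.61 ± 0.44, and Cp, the copper ferroxidase ceruloplasmin, by 2.07 ± 0.30. Fth1, ferritin heavy chain, went from 4897, 3724 and 3747 to 5736, 6326 and 6309 CPM, less than 2-fold (0.57 ± 0.13) but one of the greatest gains in level. Serpina3n, Ctsd, C1qa and Apoe, described above, and Itm2b, a membrane protein with a log2 fold change of 0.59 ± 0.13, complete the 8 genes with the greatest gains in CPM.

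Lists of other stress programmes held from none to 7 genes called higher, and differences between these lists were not tested. No ER chaperone gene (12 tested) was called, and of 15 genes of the integrated stress response 3 were called higher. Atf3, a stress-induced transcription factor, went from 0.902, 4.42 and 2.95 to 34.6, 24.4 and 23.5 CPM, and Nupr1 rose by 1.70 ± 0.30. Of 11 heat shock genes 2 were called higher and 1 lower. Hspb1, a small chaperone of reactive astrocytes, rose by 2.71 ± 0.46 on the log2 scale and Hspb8, another small chaperone, from 39.7, 37.0 and 33.3 to 111, 112 and 85.6 CPM, while Hsph1 fell from 133, 159.7 and 166 to 90.8, 65.7 and 69.3 CPM, with a log2 fold change of -1.02 ± 0.23, and of -1.09 without WT + PBS replicate 1, and was not called with the Xist level as a covariate. Hspa8, the constitutive chaperone, lost the most level in this list, at -0.67 and -0.38 on the log2 scale with and without that library. Of 16 glucocorticoid-responsive genes, 7 were called higher (8 without WT + PBS replicate 1). Fkbp5, a co-chaperone of the glucocorticoid receptor, was at 52.3, 43.1 and 30.8 CPM in WT + PBS and 145, 142 and 142 CPM in WT + CBE. Sgk1, a kinase induced by the hormone, rose from 145, 139 and 105 to 298, 327 and 332 CPM, and Angptl4, a secreted inhibitor of lipoprotein lipase, by 2.32 ± 0.29. Mt2 and Plin4 are on this list too, and most of these genes respond to other signals as well. Of 15 genes of hypoxia and glycolysis 1 was called higher and 1 lower, with and without WT + PBS replicate 1. The latter was Vegfa, the vessel growth factor, which fell from 53.2, 46.4 and 55.3 to 25.9, 21.1 and 21.7 CPM and was not called with the Xist level as a covariate. Of 15 clock genes none was called.

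Of 18 cell cycle genes tested 9 were called higher and none lower (8 without WT + PBS replicate 1), and with the Xist level as a covariate 3 were. Their levels were low: Top2a, the topoisomerase of dividing cells, was at 3.61, 1.66 and 3.37 CPM in WT + PBS and 11.9, 13.6 and 7.83 CPM in WT + CBE, and Ube2c, of the anaphase machinery, rose by 1.74 ± 0.30. Cdkn1a, the cell cycle inhibitor p21, rose by 1.92 ± 0.51 from 45.1, 62.2 and 59.1 CPM. A2m, a protease inhibitor of astrocytes, rose by 4.09 ± 0.27, within a matrix and protease list of which 8 of 25 were called higher and 1, the metalloproteinase Mmp15, lower. Without WT + PBS replicate 1, 9 were higher and none lower, Mmp15 going from -1.14 to -0.88 on the log2 scale. Genes of cytosolic ribosomal proteins (75 tested) had no called gene with all libraries and 2 higher without WT + PBS replicate 1. By adjusted p alone 1 was higher with all libraries and 24 without that library, and the median went from 0.11 to 0.36. Their summed level was 57240.1, 32661 and 32304 CPM in WT + PBS and 43062, 42439.9 and 41690.3 CPM in WT + CBE, the first control library being highest.

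A further 347 genes called higher and 103 called lower were in no list. The most abundant of those called higher in WT + CBE were Dbi, which encodes the acyl-CoA binding protein (1.28 ± 0.22), Dhrs1, a short-chain dehydrogenase (1.86 ± 0.17), and Id3, an inhibitor of basic helix-loop-helix factors (1.27 ± 0.16), chosen after their values were seen. Among those called lower, Ppp1r3g, a glycogen-targeting subunit of phosphatase 1, was at 17.1, 22.1 and 26.6 CPM in WT + PBS and 4.95, 6.10 and 4.82 CPM in WT + CBE, a log2 fold change of -2.08 ± 0.36. Apln, the peptide ligand apelin of endothelial tip cells, was at 31.6, 31.2 and 32.1 CPM in WT + PBS, nearly equal in the 3 controls, and 10.8, 5.63 and 8.44 CPM in WT + CBE, a log2 fold change of -1.89 ± 0.31 (adjusted p = 0.000351). Gkn3, an arterial endothelial marker, had the lowest fitted log2 fold change of the called genes, at 5.41, 6.36 and 8.44 CPM in WT + PBS and 0.582, 0.469 and 1.21 CPM in WT + CBE. It was 9.98-fold higher (95% counting interval 4.00 to 32.1) in WT + PBS by summed counts and called with and without WT + PBS replicate 1. It too was chosen after its values were seen. AU021092 fell with all libraries (-1.66), from 14.4, 9.67 and 8.44 to 4.66, 1.88 and 2.41 CPM, and missed the adjusted p threshold without WT + PBS replicate 1 (0.0619). Ckb, the brain creatine kinase, was among the 8 greatest losses in level of genes lower by adjusted p with all libraries (-0.62), and was not lower by adjusted p without that library (0.0928).

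**Figure D5:**
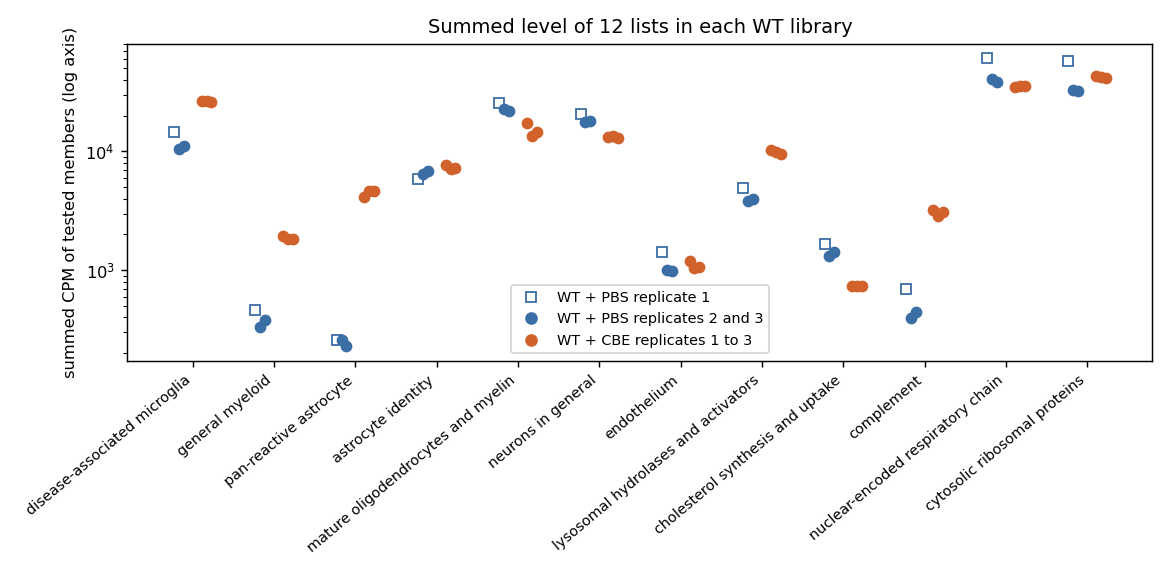
Summed CPM (log axis) of the tested members of 12 lists in each WT library, open squares marking WT + PBS replicate 1. The myeloid, reactive astrocyte, lysosomal and complement sums are higher and the myelin, neuronal and cholesterol synthesis sums lower in all WT + CBE libraries than in all controls, and the ribosomal sum is highest in WT + PBS replicate 1.

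Within the 4 WT libraries with at least 17 Y-linked counts, 3 WT + PBS and WT + CBE replicate 2, with the spread taken from all groups, 385 genes were called higher and 56 lower, of which 370 and 31 were called with all libraries. The medians there were -0.87 for myelin, -0.87 for cholesterol synthesis, 2.59 for general myeloid and 3.50 for pan-reactive astrocyte genes. A single WT + CBE library carries that comparison, and it is assumed to vary like the others. The change with CBE differed between WT and MyTrMaSt mice, by the interaction term of the same model, for 58 genes (0.489% of those tested), of which 49 were called in WT and 16 of those lay outside the interferon list. Of the 29 genes named above that were called lower, 14 were also called with the Xist level as a covariate and 12 in the 6 WT libraries alone. In the 4 libraries with Y-linked counts 10 of the 29 were called, and Ppp1r3g was not, though called in both those fits. Ugt8a, Ermn, C1ql1, Rgs5, Slc17a7, Tnnt1, Stmn3, Vamp2, Eef1a2, Gm12338, Insig1, Fdps and Mmp15 were called neither with the covariate nor in the 6 WT libraries, Hsph1 and Vegfa not with the covariate, and Slc7a10, Gal3st1, Ppp1r14a and AU021092 not in the 6 libraries. Of the 99 named genes called higher, Xist left out, 93 and 92 were called in the first pair of fits, and 88 in the 4 libraries with Y-linked counts, where Cx3cr1, Socs3 and Cdkn1a, called in that pair, were not. Sox9, Gla and Abca1 were called neither with the covariate nor in the 6 WT libraries, H2-Aa and Top2a not with the covariate, and Vcam1, B2m and H2-Ab1 not in the 6 libraries, while Lyve1 was not called with the covariate and not tested in the 6 libraries.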

How the data were processed

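RNA from mouse brains was sequenced as bulk MARSseq libraries of transcript 3′ ends, and reads were trimmed and aligned to mm10. The deposited values are raw read counts per gene, made by the authors from uniquely mapped reads; HTSeq and cutadapt are named in the submitters' processing notes. Strand and molecular identifiers are not given in the sources used here, so reads of a gene and its antisense partner cannot be told apart. The authors' normalized table and their columns of means, fold changes, p-values and directions were not used, and 21 date-like gene names were kept as listed.

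Counts of 14 libraries in 4 groups were filtered with filterByExpr, TMM-normalized and fitted with the edgeR 4.0.16 quasi-likelihood F test (R 4.3.3), after the same code was tested on simulated data. CPM were computed from TMM-scaled library sizes, and ± after a log2 fold change is its standard error. A gene was called (a DEG) at 2-fold or more with a Benjamini-Hochberg adjusted p below 0.05, n = 3 per WT group. "At least" folds, for genes without a count in WT + PBS, were computed against 3 counts per library; with few counts, ratios of summed counts are given with exact 95% intervals. Each mouse gave 1 library, and the count totals limit precision for genes with few counts. Motifs were sought in RefSeq promoters of GRCm38.p6, and gene coordinates come from GENCODE M21.

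Named genes were the checks, the 10 highest and 10 lowest log2 fold changes outside the interferon list above 10 CPM without overlap, the 8 greatest gains and losses in CPM, and leading members of each list; others were chosen after their values were seen. The comparison, the 78 gene lists and the named members were chosen with earlier results of these data known. Alternatives were DESeq2 1.42.0, limma 3.58.1 voom, other filters and size factors, the 6 WT libraries alone, a replicate block, Xist as a covariate, a test against 1.5-fold, leaving out each library and, chosen after seeing the data, 2 subsets of WT libraries. Some genes are not reported here.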

Additional observations from a re-analysis of the deposited data

Results flagged for a closer look

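For 22 genes the change with CBE differed between WT and MyTrMaSt null mice by the interaction term of the edgeR quasi-likelihood model, with the adjusted p taken over all tested genes. Values below are the log2 fold change in MyTrMaSt mice minus that in WT. The 22 are the 16 genes called in WT that lay outside the interferon list and passed this test, and 6 genes of that list named above, of 58 that passed it in all. All 22 values were negative, but each gene was picked through its call or naming in WT and rose there. The shared sign is therefore largely set by that choice. The labels give no sex, but Y-linked counts were present in all 3 WT + PBS libraries, and 7 of the 8 MyTrMaSt libraries had Xist and at most 1 Y-linked count, so that sex-linked transcripts differed along with genotype, and their part in these values was not tested. Among reactive astrocyte and astrocyte-linked genes the difference was -4.84 for Lcn2 (adjusted p = 0.00847), whose log2 fold change was 7.52 in WT and 2.68 in MyTrMaSt mice. It was -1.73 for Serpina3n (0.0272), -1.21 for Vim (0.0199), -1.46 for Chil1 (0.0428) and -2.03 for Cp (0.0387). Cp was the gene of this group with the least change in MyTrMaSt mice, 0.04 against 2.07 in WT.

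Among myeloid and lysosomal genes the difference was -4.63 for Ms4a7 (adjusted p = 0.0111), -1.68 for Spp1 (0.00371), -1.70 for Ctsc (0.0302) and -1.18 for Ctss (0.0291). It was -2.21 for Tgfbi (0.0409) and -2.10 for Il2rg (0.0409). C1ra, a complement protease, had -4.13 (0.0120), from 3.46 in WT to -0.67 in MyTrMaSt mice.

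Among interferon-linked and antigen presentation genes the difference was -4.56 for Gbp2 (adjusted p = 0.000909), -4.70 for Cxcl10 (0.0111), -3.48 for Rtp4 (0.00310), -2.68 for Epsti1 (0.0238) and -1.37 for Shisa5 (0.00123); the last 3 are not on the interferon list used. It was -3.29 for Tap1 (0.000900), -2.16 for H2-D1 (2.06e-05), -1.72 for H2-K1 (0.00523), -1.58 for Psmb8 (0.0302) and -1.44 for Tapbp (0.00339). WT + PBS replicate 1 enters the WT side of each of these values.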

How the results depend on the processing

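The counts of called genes were recomputed under each alternative. Replicate numbers were not used as pairs in the main fit. Deviations of same-numbered WT libraries correlated at -0.00726, -0.00353 and -0.0398, but 3 libraries per group are too few to show whether the numbers paired the samples. With the numbers as a replicate block in the 6 WT libraries, 332 genes were higher and 20 lower, and 333 and 24 by adjusted p alone. Without the block, these libraries gave 423 and 36, and 442 and 51. With the Xist covariate 86 were lower, 44 of them among the 143, and 127 by adjusted p alone. The test against 1.5-fold called 37 lower, 36 of them among the 143. By adjusted p alone limma voom called 1209 higher and 789 lower, and the 5 WT libraries without WT + PBS replicate 1 called 1222 and 809. The WT libraries with Y-linked transcripts gave 385 higher and 56 lower, and 391 and 65 by adjusted p alone. Leaving out each WT library in turn gave 540 to 699 higher and 67 to 297 lower, and 614 to 1037 and 141 to 669 by adjusted p alone. The lower count was 67 without WT + CBE replicate 2, 297 without WT + PBS replicate 2 and 255 without WT + PBS replicate 3, and by adjusted p alone 202, 141 and 198 without WT + CBE replicates 1, 2 and 3. Of 153 named genes, 129 were called, 90 under every alternative that tested them, and none of the called ones changed direction. P2ry12, not called, had a log2 fold change of -0.24 under limma voom, -0.21 with the Xist covariate, -0.32 in the 5 WT libraries, -0.16 in those with Y-linked transcripts and -0.32 to 0.37 with each library left out. With each library left out, Ugcg had -0.65 to 0.038 and Pecam1 -0.052 to 0.21, neither called. The cause of these shifts was not tested. Depth limits genes of few counts: the median tested gene had 29 to 103 counts per library.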
